A study of Homo sapiens with 8 samples.

Results

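The genes described here are 10 transcripts that report on signalling through the kinase ERK and feed back on it: the phosphatase genes DUSP4, DUSP5 and DUSP6, the inhibitor genes SPRY2, SPRY4, SPRED1 and SPRED2, the transcription factor genes ETV4 and ETV5, and PHLDA1. The rule names them and uses no measured value, though the list was drawn up when earlier results of these data were known. Every probe set that the platform annotation gives to 1 of these genes alone was kept, which gave 28 of 49293 probe sets and 10 of 18132 genes. None of the 10 passed the test of Aldrin-exposed against Non-exposed cells. DUSP6 was the 1 member whose groups did not overlap at its brightest probe set, with 0.769 times the Non-exposed level in exposed cells. In its other probe sets the groups overlapped. Of all 18132 genes, 221 had no overlap on the lower side and 97 on the higher side. SPRY2 had the higher and SPRY4 the lower mean in exposed cells, with log2 fold changes of 0.41 and -0.41 that did not pass.

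Total RNA of DU145, an established prostate cancer cell line that grows without androgen, was hybridised to 1-color Affymetrix arrays. The study's methods name another Affymetrix plate than the platform whose annotation assigns probe sets to genes here, and the gene names rest on that annotation. In the Aldrin-exposed group (4 arrays) the cells had been kept for 50 days with 1 µM Aldrin, an organochlorine insecticide, at a final 0.01% DMSO, and were diluted every 3 days with renewed treatment at each passage. The Non-exposed group (4 arrays) is labelled as non-treated cells of the same line, but its records carry the same text on Aldrin and DMSO as those of the exposed group, so whether it received DMSO is not known. Nothing says that the replicates of a group were separate cultures, and the p-values refer only to the spread among these arrays, which may be technical.

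In the RAS, RAF, MEK and ERK cascade, a growth factor signal ends in the phosphorylation of ERK, which enters the nucleus and switches on a set of genes within minutes to hours. Several of these genes encode brakes on the same cascade, so their transcripts are widely used as a readout of ERK activity. The DUSP phosphatases remove phosphate from ERK, the Sprouty and SPRED proteins act upstream at the level of RAS and RAF, and ETV4 and ETV5 are ETS factors of the PEA3 group that carry the signal to further genes.

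The start regions of DUSP6, whose groups did not overlap, and of SPRY2, with the largest positive difference among the members, are shown because ERK is known to act on transcription through ETS, AP-1, CREB, serum response and EGR factors. The RefSeq table (GRCh38.p14) held windows for 6 of the 10 genes, namely DUSP6, SPRY2, SPRY4, SPRED1, SPRED2 and PHLDA1. Each line gives 250 bases upstream of the annotated start, 5′ to 3′ on the gene's strand. DUSP6 lies at chr12:89352502-89352751 and the first of 3 windows of SPRY2 at chr13:80341127-80341376, both on the minus strand.
DUSP6: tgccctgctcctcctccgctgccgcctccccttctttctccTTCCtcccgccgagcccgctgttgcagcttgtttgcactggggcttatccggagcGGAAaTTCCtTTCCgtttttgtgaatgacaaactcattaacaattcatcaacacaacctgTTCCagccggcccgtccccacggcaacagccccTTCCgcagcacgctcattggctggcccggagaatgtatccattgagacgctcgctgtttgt
SPRY2: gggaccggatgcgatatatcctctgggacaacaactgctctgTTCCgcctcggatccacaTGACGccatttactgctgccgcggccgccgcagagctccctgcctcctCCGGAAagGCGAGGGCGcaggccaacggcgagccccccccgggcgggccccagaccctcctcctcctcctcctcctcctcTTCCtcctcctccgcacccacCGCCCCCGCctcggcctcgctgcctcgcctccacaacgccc
Capitals mark matches on either strand, so that the ETS core GGAA also appears as its complement. The DUSP6 window held 6 matches to the ETS core and none to the other motifs searched. The first SPRY2 window held 3 ETS cores, of which 1 lay within the longer form CCGGAA, together with 1 match to TGACG, the core of the CRE, and 2 to the EGR motif GCGNGGGCG. The other 2 windows of SPRY2 held 4 ETS cores each and none of the other motifs, while that of SPRY4 held 2 ETS cores, 1 CRE core and 1 EGR motif. PHLDA1 had 4 ETS cores, 1 of them in the longer form, and SPRED1 and SPRED2 had 3 to 5 in each window and none of the others. The ETS core is so short that 92.7% of the 35116 windows of this length held it. The longer form was in 14.5% of them, the CRE core in 21.2% and the EGR motif in 8.41%. The other motifs searched were the full CRE, written TGACGTCA, in 1.65%, the AP-1 motif TGANTCA in 6.57% and the CArG box of serum response factor in 1.16%. A match describes letters only and says nothing about binding.

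Values are given below as log2 intensities of 1 probe set, in the order of replicates 1 to 4 of each group. A difference of 1 on this scale is a 2-fold difference. The RMA procedure had already removed shifts common to a whole array, and in bulk RNA a smaller number of cells with a transcript cannot be told apart from less of it per cell. The mean correlation of an array with the others was 0.9898 to 0.9949. The hybridisation controls had a mean of 12.23 in Aldrin-exposed replicate 2, against 11.14 to 11.51 in the other arrays. What set this array apart was not tested. The cells read as the epithelial line of their label, with the keratin genes KRT8 at 11.88 and KRT18 at 12.40 in exposed cells, against 11.99 and 12.53 in Non-exposed cells. The androgen-driven genes KLK3 and TMPRSS2, at 5.60 and 6.30 in exposed and 5.57 and 6.20 in Non-exposed cells, lay at the percentiles 21.9 and 29.2 of all probe sets. Over 12 markers of leukocytes, endothelium and fibroblasts, the mean level per array was 5.97 to 6.16 in exposed and 6.00 to 6.19 in Non-exposed cells. Single markers ran from LUM, at 4.19 in exposed cells against 4.17 in Non-exposed cells (percentile 2.73), to COL1A1, at 8.12 in exposed cells against 8.30 in Non-exposed cells (percentile 51.7). The leukocyte gene PTPRC, the monocyte gene CD14 and the endothelial gene VWF read 4.76, 7.07 and 7.73 in exposed cells, against 4.75, 6.93 and 7.78 in Non-exposed cells. None of the 12 had an unadjusted p under 0.05, and their part in the results was not tested.

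Among the phosphatases, DUSP6 encodes the cytoplasmic enzyme that is specific for ERK. At its probe set of highest mean (11744618_a_at) it read 8.01, 7.97, 8.19 and 8.25 in Aldrin-exposed cells, against 8.31, 8.37, 8.47 and 8.80 in Non-exposed cells. Every exposed array lay below every Non-exposed array, and the gap between the groups, from 8.25 to 8.31, was small. The mean was 8.11 ± 0.14 in exposed cells, against 8.49 ± 0.22 in Non-exposed cells (SD, n = 4 each). This is a log2 fold change of -0.38 (standard error 0.12, 95% confidence interval -0.65 to -0.11, adjusted p = 1 from limma over all probe sets). The exact permutation test, two-sided, gave p = 0.0286, which is the smallest value that 4 against 4 arrays allow. Groups of 4 without overlap always give this value.

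For the other 3 probe sets of DUSP6 the mean was again lower in exposed cells, and in each of them the groups overlapped. Probe set 11744435_a_at read 7.16, 7.22, 7.21 and 7.81 in exposed cells, against 7.55, 7.47, 7.75 and 7.93 in Non-exposed cells. Probe set 11741980_a_at read 7.12, 7.42, 7.11 and 7.73 in exposed cells, against 7.50, 7.39, 7.68 and 7.85 in Non-exposed cells. Probe set 11722049_a_at read 6.92, 6.81, 7.36 and 7.55 in exposed cells, against 7.41, 7.41, 7.48 and 7.76 in Non-exposed cells. Aldrin-exposed replicate 4 was the highest exposed array in all 4 probe sets, and in these 3 it lay within the Non-exposed range. Their log2 fold changes were -0.33, -0.26 and -0.36, with exact permutation p = 0.171, p = 0.2 and p = 0.2. Without Aldrin-exposed replicate 4, the 4 probe sets of DUSP6 all had an unadjusted p under 0.05, where 1.75% of all probe sets did so on the lower side, and 3 of them had no overlap, where 2.66% of all did. With each of the other 7 arrays left out, 1 or 2 of the 4 had an unadjusted p under 0.05 and 1 had no overlap. Of all probe sets, 1.41% to 2.56% had such a p on the lower side, and 2.11% to 3.65% had no overlap. The probe set of highest mean had no overlap over all arrays, so leaving an array out could not bring overlap about there. Under all 18 alternative settings the log2 fold change at the probe set of highest mean stayed negative, from -0.44 to -0.28 over the arrays left out, and its adjusted p from limma or the other tests was at least 0.732.

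DUSP4, a nuclear phosphatase of ERK, was measured by 1 probe set (11744162_a_at). It read 6.40, 6.24, 6.49 and 6.48 in exposed cells, against 6.49, 6.60, 6.45 and 6.38 in Non-exposed cells. The groups overlapped from 6.38 to 6.49, and the log2 fold change was -0.08 (standard error 0.09, interval -0.27 to 0.12, exact permutation p = 0.4). DUSP5, the other nuclear enzyme and specific for ERK, read 11.47, 11.35, 11.47 and 11.40 in exposed cells, against 11.05, 11.24, 11.51 and 11.56 in Non-exposed cells (11717863_a_at). The exposed arrays lay close together inside the range of the Non-exposed ones, at 11.42 ± 0.06, against 11.34 ± 0.24 in Non-exposed cells (SD, n = 4 each). Its log2 fold change was 0.08 (standard error 0.12, interval -0.18 to 0.35, exact permutation p = 0.543), and -0.01 without Non-exposed replicate 1, its lowest array. The 3 phosphatase genes thus had no common sign.

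**Figure D1:**
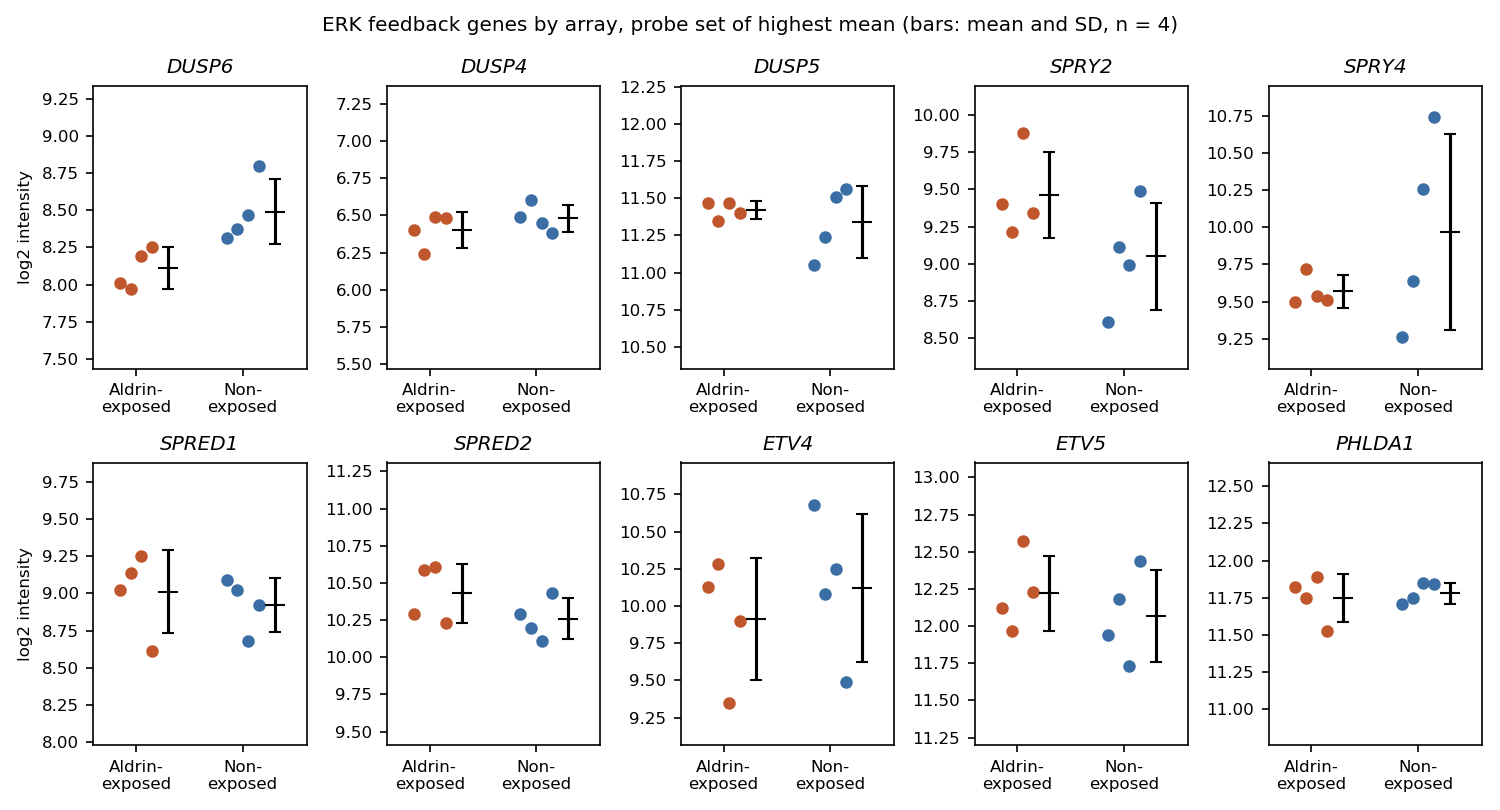
Log2 intensity (vertical axis, 1 panel per gene, each with its own range of the same span) in the 4 Aldrin-exposed and 4 Non-exposed arrays, at the probe set of highest mean of each gene, with bars for the mean and SD. Of the 10 panels, that of DUSP6 alone has no overlap between the groups, from 7.97 to 8.25 in exposed and 8.31 to 8.80 in Non-exposed arrays, and in SPRY4 the Non-exposed arrays spread from 9.26 to 10.74.

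The Sprouty proteins are membrane-associated inhibitors that act between receptor tyrosine kinases and RAF. SPRY2 was measured by 1 probe set (11753988_a_at), which read 9.40, 9.21, 9.88 and 9.34 in exposed cells, against 8.61, 9.11, 8.99 and 9.49 in Non-exposed cells. The exposed arrays lay above 3 of the 4 Non-exposed arrays, and Non-exposed replicate 4 was above all but 1 of the exposed ones. The mean was 9.46 ± 0.29 in exposed cells, against 9.05 ± 0.36 in Non-exposed cells (SD, n = 4 each), a log2 fold change of 0.41 or 1.33-fold (standard error 0.20, interval -0.04 to 0.86, adjusted p = 1 from limma). The exact permutation test gave p = 0.143. Without Non-exposed replicate 4 the groups did not overlap and the unadjusted p of limma was under 0.05, where 2.68% and 3.14% of all probe sets did so on the higher side.

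SPRY4 had the largest SD within a group among the 28 probe sets, 0.66 in Non-exposed cells. At its probe set of highest mean (11762359_x_at) it read 9.50, 9.72, 9.54 and 9.51 in exposed cells, against 9.26, 9.64, 10.26 and 10.74 in Non-exposed cells. The exposed arrays were close together, while the Non-exposed arrays lay on both sides of them. This gave a log2 fold change of -0.41 (standard error 0.28, interval -1.03 to 0.22, adjusted p = 1 from limma, exact permutation p = 0.343). It was -0.15 without Non-exposed replicate 4 and -0.64 without Non-exposed replicate 1. Probe set 11754344_s_at read 8.33, 8.72, 8.23 and 8.10 in exposed cells, against 9.10, 8.82, 8.66 and 8.07 in Non-exposed cells, a log2 fold change of -0.32 (exact permutation p = 0.314). Here Non-exposed replicate 4 was the lowest of the 8 arrays, while it was the highest for the first probe set. Probe set 11736669_s_at was dim, at 4.92, 5.38, 4.83 and 4.88 in exposed cells, against 5.35, 4.96, 5.17 and 4.84 in Non-exposed cells, and it is the 1 member probe set among the dimmest 30% on the arrays. Its log2 fold change was -0.08. After removal of the group means, the first SPRY4 probe set had r = -0.72 and -0.34 with the other two over the 8 arrays, which had 0.83 with each other. The probe sets of SPRY4 thus had the same sign of difference but did not all follow each other between arrays of a group. The suffixes of all of them, _x_at or _s_at, mark probes that can also bind other transcripts. The probe sets of highest mean of SPRED1 and ETV5 also end in _s_at. Whether they bound other transcripts here was not tested.

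SPRED1 and SPRED2 carry a domain related to that of the Sprouty proteins and hold back the activation of RAF by RAS, SPRED1 through the RAS-GTPase activating protein neurofibromin. The mean was higher in exposed cells for all 5 probe sets of SPRED1 and all 3 of SPRED2, with overlap of the groups in each of these 8. At the probe set of highest mean (11734826_s_at), SPRED1 read 9.02, 9.14, 9.25 and 8.61 in exposed cells, against 9.09, 9.02, 8.68 and 8.92 in Non-exposed cells. Aldrin-exposed replicate 4 was the lowest of the 8 arrays, and the other 3 exposed arrays lay at or above the middle of the Non-exposed ones. Its log2 fold change was 0.08 (standard error 0.15, interval -0.25 to 0.42, exact permutation p = 0.657), and over the 5 probe sets it ran from 0.08 to 0.32. SPRED2 read 10.29, 10.59, 10.61 and 10.23 in exposed cells, against 10.29, 10.20, 10.11 and 10.43 in Non-exposed cells (11717656_a_at). Its log2 fold change was 0.18 (standard error 0.11, interval -0.08 to 0.43, exact permutation p = 0.229), and its 3 probe sets ran from 0.13 to 0.18.

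The SPRED1 and SPRED2 values, and those of some other members, moved with 2 technical measures of the arrays. The 3′ minus 5′ difference of the GAPDH control, which grows as RNA is shortened or copied less completely, was 0.41 to 0.65 in exposed and 0.39 to 0.59 in Non-exposed cells. With group means removed, the SPRED1 probe sets had r = 0.70, 0.80, 0.89, 0.86 and -0.16 with it over the 8 arrays. With the difference between background probes of high and of low GC content, which was 5.59 to 6.14 in exposed and 5.76 to 6.37 in Non-exposed arrays, the 5 had r = -0.70, -0.64, -0.81, -0.85 and -0.17. When either measure was taken into the fit, a step added after the values had been seen, the log2 fold change of SPRED1 was -0.02. With the GC measure and with the GAPDH measure, DUSP6 had -0.38 and -0.39, SPRY2 0.33 and 0.28, and SPRY4 -0.43 and -0.50. SPRED2 had 0.10 with either, against 0.18 without them, and its 3 probe sets had r = 0.70, 0.87 and 0.20 with the GAPDH measure and -0.78, -0.60 and -0.13 with the GC measure. ETV4 had -0.11 and -0.06, against -0.21, and ETV5 0.07 and 0.05, against 0.15. PHLDA1 probe set 11721307_at had r = -0.76 with the GAPDH and 0.79 with the GC measure, and SPRY2 had 0.63 and -0.40. With the GAPDH measure the ETV5 probe sets had r = 0.59, 0.46, 0.65 and 0.55, and those of DUSP6 0.12, -0.47, -0.42 and -0.19. With the GC measure the ETV5 probe sets had r = -0.51, -0.56, -0.46 and -0.59, and those of DUSP6 -0.03, 0.39, 0.26 and 0.14. The 3′ minus 5′ difference of the ACTB control was 0.20 to 0.45 in exposed and 0.16 to 0.28 in Non-exposed cells. With it the SPRED1 probe sets had r = 0.47, -0.29, 0.54, 0.35 and 0.75, those of SPRY4 0.03, 0.51 and 0.78, and DUSP4 -0.75. The ETV5 probe sets had r = -0.29, 0.77, -0.03 and 0.40 with the ACTB measure, and those of SPRED2 0.63, -0.13 and -0.49. The ACTB measure was not taken into a fit. The part of these measures in the results was not tested further.

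ETV4 and ETV5 encode closely related ETS factors whose transcripts are raised by ERK signalling in many epithelia, and here they had opposite signs. ETV4 read 10.13, 10.28, 9.35 and 9.90 in exposed cells, against 10.68, 10.08, 10.25 and 9.49 in Non-exposed cells (11719434_a_at). Each group spread widely and across the other, with a log2 fold change of -0.21 (standard error 0.27, interval -0.81 to 0.39, exact permutation p = 0.543). Without Aldrin-exposed replicate 3 or Non-exposed replicate 1 it was -0.02, and without Non-exposed replicate 4 -0.42. The second ETV4 probe set had -0.16. ETV5 read 12.12, 11.97, 12.57 and 12.23 in exposed cells, against 11.94, 12.18, 11.73 and 12.44 in Non-exposed cells (11720353_s_at), a log2 fold change of 0.15 (standard error 0.17, interval -0.23 to 0.54, exact permutation p = 0.486). That value was 0.04 without Aldrin-exposed replicate 3 or Non-exposed replicate 3 and 0.28 without Non-exposed replicate 4. Over its 4 probe sets the log2 fold change ran from 0.13 to 0.35, so that each had the higher mean in exposed cells.

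The ETV5 probe set with the largest difference (11720352_at) read 8.46, 8.51, 8.70 and 8.27 in exposed cells, against 8.37, 8.13, 7.79 and 8.25 in Non-exposed cells. Of the exposed arrays, 3 lay above all Non-exposed arrays and the fourth above 3 of them. The mean was 8.48 ± 0.18 in exposed cells, against 8.14 ± 0.25 in Non-exposed cells (SD, n = 4 each), and the log2 fold change 0.35 (standard error 0.14, interval 0.04 to 0.66, adjusted p = 1 from limma, exact permutation p = 0.0571). Without Aldrin-exposed replicate 4, 2 of the ETV5 probe sets had no overlap, where 2.28% of all probe sets had none on the higher side.

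PHLDA1, a pleckstrin homology domain protein whose transcript follows MEK and ERK activity in many cell lines, read 11.82, 11.75, 11.89 and 11.53 in exposed cells, against 11.71, 11.75, 11.85 and 11.84 in Non-exposed cells (11721306_at). All 8 arrays lay between 11.53 and 11.89, with a log2 fold change of -0.04 (standard error 0.09, interval -0.25 to 0.17, exact permutation p = 0.771). Its 4 probe sets ran from -0.17 to 0.19, with 3 lower and 1 higher. PHLDA1 was the 1 member of the 7 with several probe sets whose probe sets differed in sign. Of the other 6, the genes DUSP6, SPRY4 and ETV4 had the lower mean in exposed cells at each probe set, and SPRED1, SPRED2 and ETV5 the higher.

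**Figure D2:**
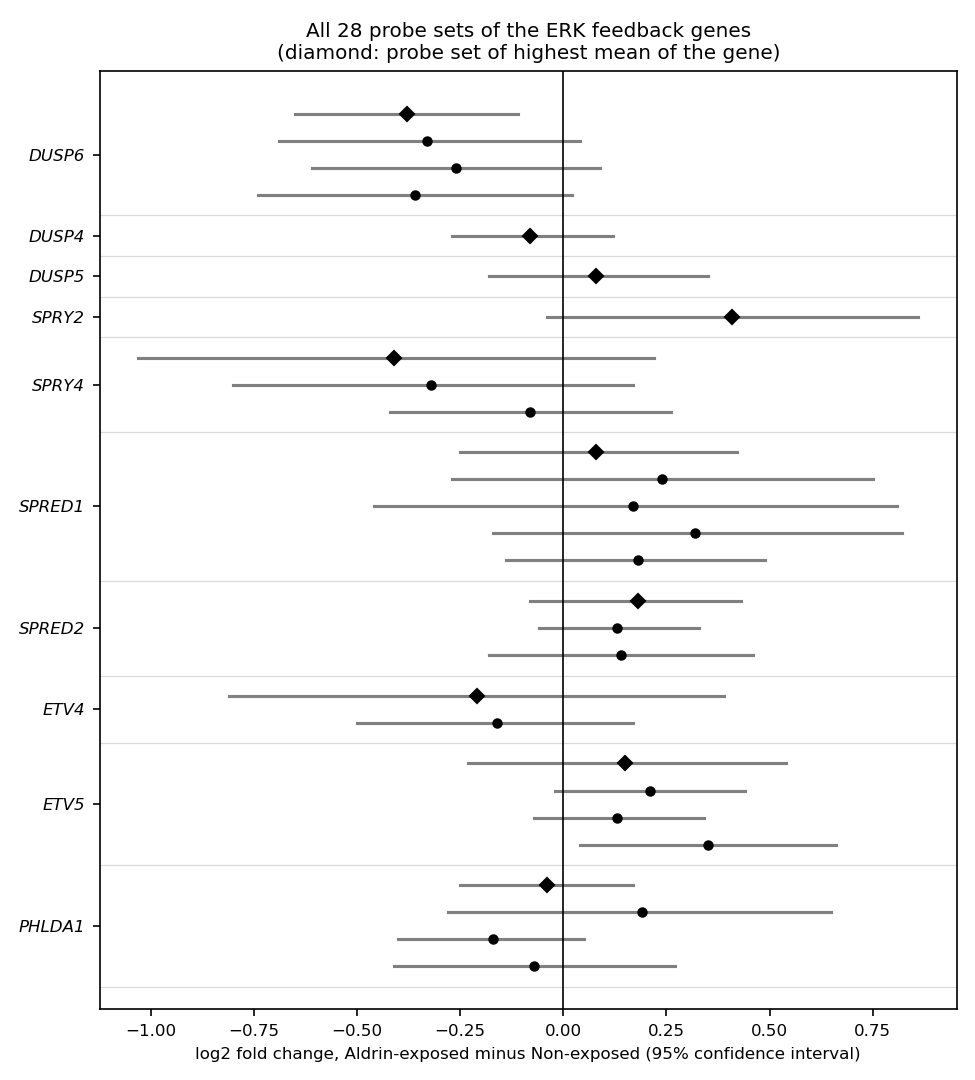
Log2 fold change of Aldrin-exposed minus Non-exposed cells (horizontal axis) for the 28 probe sets, with 95% confidence intervals from limma, and diamonds for the probe set of highest mean of each gene. The 4 DUSP6 points lie between -0.38 and -0.26 and the 4 ETV5 points between 0.13 and 0.35, and the interval leaves out 0 for 1 probe set of each.

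Over all members, 13 probe sets had the lower and 15 the higher mean in exposed cells. None passed at an adjusted p of 0.05 in limma, where 0.00203% of all probe sets did. At an unadjusted p under 0.05, limma counted 1 member probe set on the lower side, against a background of 1.85% of all probe sets, and 1 on the higher side, against 1.22%. The unequal-variance test counted 1 in all, or 1 of 28, where 2.77% of all probe sets passed in either direction. The groups did not overlap in 1 of the 28, the DUSP6 probe set of highest mean, on the lower side, where 1.35% of all probe sets had no overlap, and in none on the higher side, where 0.643% had none. The median log2 fold change was 0.082 over the member probe sets and -0.005 over all probe sets. The median size of the difference, without its sign, was 0.176 for members and 0.074 for all. The scatter within a group was also larger for the members, with a median SD of 0.24 against 0.16 for all probe sets. Their 95% confidence intervals reached a median of 0.34 to either side of the estimate.

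With each gene at its probe set of highest mean, 5 members had the lower and 5 the higher mean in exposed cells, with a median of 0.022, against -0.011 over all genes. They ran from -0.41 to 0.41, while the central 95% of all genes ran from -0.23 to 0.26. SPRY2, SPRY4 and DUSP6 lay outside this range and the other 7 inside it.

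**Figure D3:**
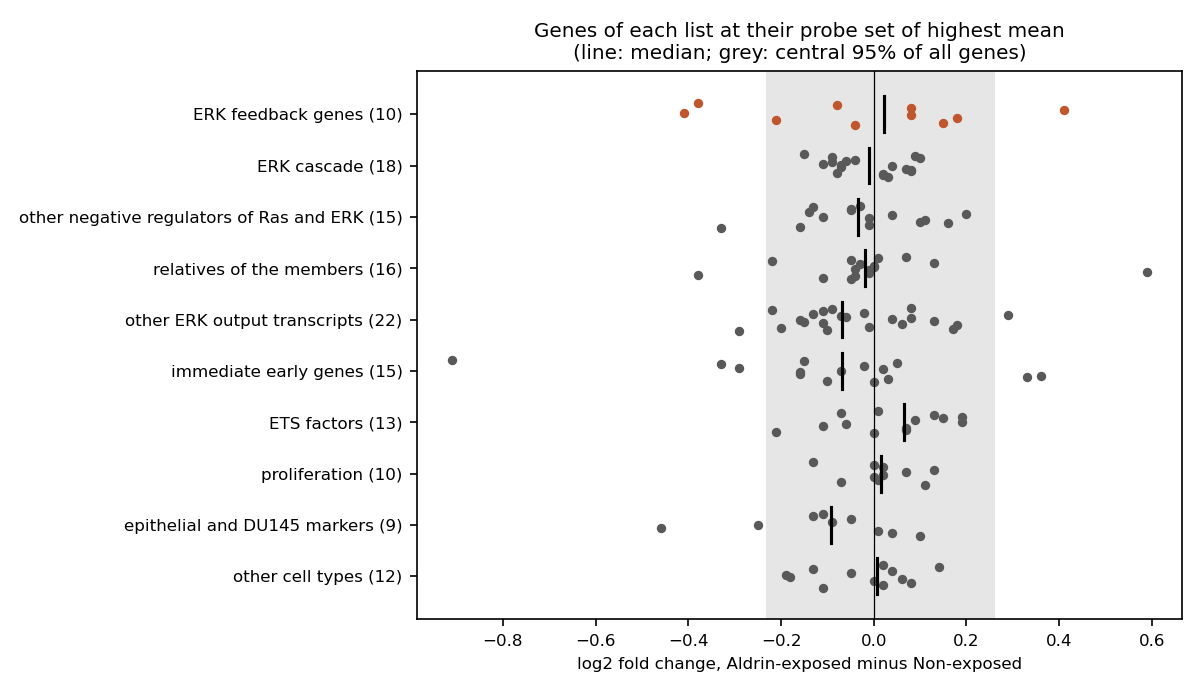
Log2 fold change of Aldrin-exposed minus Non-exposed cells (horizontal axis) for each gene of the members (orange) and of 9 further lists (grey), each at its probe set of highest mean, with the number of measured genes in brackets, a line for the median and grey shading for the central 95% of all genes. The members divide into 5 lower and 5 higher with a median of 0.022, and EGR1 among the immediate early genes lies lowest at -0.91.

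The genes of the cascade itself had differences closer to 0 than the members' range of -0.41 to 0.41. Of 23 genes from adaptors to the kinases downstream of ERK, 18 were measured here, with 9 lower and 9 higher in exposed cells and a range from -0.15 to 0.10. None had an unadjusted p under 0.05, where 1.59% of all genes did on the lower and 1.17% on the higher side. Those of smallest p were GRB2, the adaptor of receptor tyrosine kinases, at 0.10, LAMTOR3, a scaffold of MEK and ERK, at 0.08, GAB1, a docking protein, at -0.09, and SOS2, an exchange factor of RAS, at -0.09. GRB2 had 1 probe set lower and 1 higher, GAB1 4 and 4, and SOS2 2 and 1, while both of LAMTOR3 were higher. Of 15 measured genes among 18 further negative regulators of RAS and ERK, 10 were lower and 5 higher, none at an unadjusted p under 0.05, with a median of -0.033. The genes of smallest p among them were RGS2, a regulator of G protein signalling, at -0.33, LRIG1, which lowers ERBB receptors, at -0.16, the ERK-binding protein PEA15 at 0.11 and RASA2, a RAS-GTPase activating protein, at -0.13.

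Among 16 relatives of the members, all measured, 12 had the lower and 4 the higher mean in exposed cells, and 1 had an unadjusted p under 0.05, on the higher side, where 1.17% of all genes did. The count was 0 in 9 of 18 alternative settings, 5 of them with an array left out. This was SPRY1, a further Sprouty inhibitor, which read 7.64, 7.83, 7.76 and 7.01 in exposed cells, against 7.25, 7.34, 6.63 and 6.68 in Non-exposed cells. Of the exposed arrays, 3 lay above all the Non-exposed arrays, and replicate 4 lay among them. Its log2 fold change was 0.59 (interval 0.09 to 1.09, adjusted p = 1 from limma), and its 3 probe sets ran from 0.46 to 0.59. SPRY1 and SPRY2 therefore had the higher and SPRY4 the lower mean in exposed cells. SPRED3, a further SPRED gene, had -0.38 with both its probe sets lower, DUSP7, a further phosphatase of ERK, -0.22 and PHLDA2 -0.11.

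Of 24 other transcripts known to be raised or, for BCL2L11, lowered by ERK signalling, 22 were measured, with 14 lower and 8 higher in exposed cells and a median of -0.069. None had an unadjusted p under 0.05. The count ran from 0 to 3 over the 18 alternative settings and was above 0 in 7 of them. It was 3 with the mean of all probe sets of a gene, where 3.46% of all genes passed in either direction. Without Non-exposed replicate 4 it was also 3, where 5.7% of all probe sets passed. EMP1, a membrane protein, had 0.29 with all 4 probe sets higher. BCL2L11, which encodes the cell death protein BIM, had -0.29, and all its 14 probe sets were lower, from -0.93 to -0.06. The receptor gene EPHA4 had -0.22 and TRIB1, a pseudokinase, -0.15. Of 13 measured ETS factor genes beyond the members, 5 were lower and 8 higher, none at an unadjusted p under 0.05, with SPDEF at -0.21, ELF3 at 0.19, the ERK-controlled repressor ERF at 0.19 and ETV6 at -0.11. ERF had 2 probe sets lower, down to -0.04, and 1 higher, while ETV6 had 1 lower and 2 higher, up to 0.38. Of 10 proliferation genes 4 were lower and 6 higher, with MKI67 at -0.13, CCNA2 at 0.13, PCNA at 0.11 and CDK1 at 0.07. MKI67 had 3 probe sets lower and 3 higher, and PCNA 1 and 1. Of 9 measured epithelial and DU145 markers 6 were lower, of which CDH1, the gene of E-cadherin, at -0.46, had an unadjusted p under 0.05 (in 11 of 18 alternative settings at least 1 gene of this list did), and 3 were higher.

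Immediate early genes, which answer ERK within minutes, divided into 10 lower and 5 higher of 15 measured out of 16, and 2 on the lower side had an unadjusted p under 0.05, where 1.59% of all genes did. The count ran from 0 to 3 over the 18 alternative settings and was 0 in 5 of them, among them the unequal-variance test. The 2 were JUN at -0.29 and FOS at -0.33, the partners of the AP-1 factor, each with 4 of 4 probe sets lower and an adjusted p = 1 from limma. ATF3, a stress-induced factor, had 0.36. EGR1, a zinc finger factor, read 10.95, 10.99, 11.65 and 13.02 in exposed cells, against 11.83, 12.29, 12.76 and 13.38 in Non-exposed cells, at its probe set of highest mean. Over its 6 probe sets the difference ran from -2.22 to -0.91, and none passed (adjusted p = 1 from limma for each).

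Aldrin-exposed replicate 4 was the highest exposed array for DUSP6 in all 4 probe sets and for EGR1 in 4 of 6, and in the other 2 of EGR1 it was replicate 2. This pair was singled out after the values had been seen, so its likeness is a description. After removal of the group means, DUSP6 and EGR1, each at its probe set of highest mean, had Pearson's r = 0.85 and Spearman's rho = 0.88 over the 8 arrays. Without the 2 arrays farthest from the median r was 0.79. Over the 24 pairs of their probe sets r ran from -0.17 to 0.98, with a median of 0.78. Without the 2 arrays farthest from the median of the EGR1 probe set, r over these pairs ran from -0.40 to 0.95. The same pairs gave a median r of 0.05 for SPRY2, 0.14 for SPRY4 and -0.48 for ETV5 with EGR1. The 8 arrays share a cell line and a hybridisation procedure, and what made them differ was not tested.

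**Figure D4:**
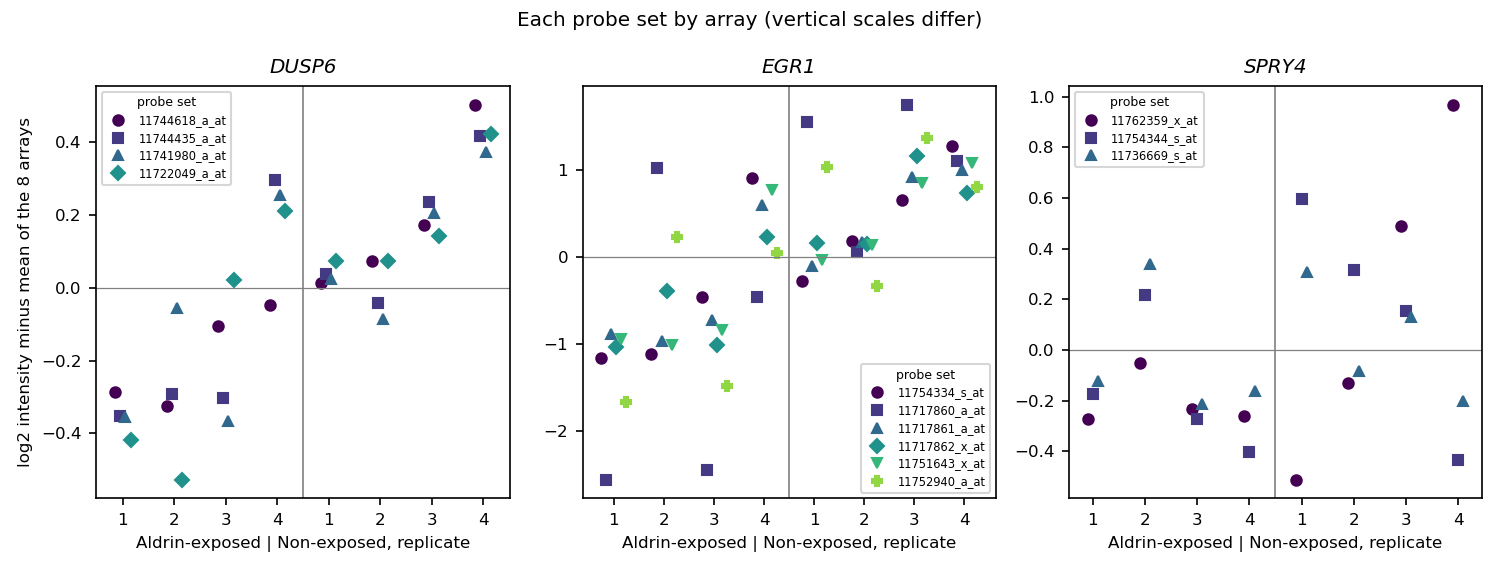
Log2 intensity minus the mean of the 8 arrays (vertical axis, scales differ) for each probe set of DUSP6, EGR1 and SPRY4 in Aldrin-exposed replicates 1 to 4 and Non-exposed replicates 1 to 4. In DUSP6 and EGR1 all probe sets are higher in Aldrin-exposed replicate 4 than in replicate 1, while the SPRY4 probe sets part from each other in Non-exposed replicates 1 and 4.

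The members did not vary as 1 group between arrays. Over the 45 pairs of member genes, with group means removed, 27 correlations were above 0, of which 12 were above 0.5, and 6 were below -0.5, with a median of 0.18. ETV4 ran opposite to the others most often, with r = -0.98 to SPRY2, -0.87 to ETV5 and -0.84 to DUSP6. Within genes, the 6 pairs of DUSP6 probe sets had r from 0.52 to 0.93, those of SPRED2 from 0.28 to 0.57, and the pair of ETV4 0.35. The pairs of SPRED1 ran from -0.45 to 0.95, of ETV5 from -0.14 to 0.86 and of PHLDA1 from -0.75 to 0.81.

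The mean of the 10 member profiles, likewise with group means removed, was followed best by SPRY2 among the members, with r = 0.90, and ETV4 had -0.85. Each member is itself part of this mean, so the r of a member cannot be set beside that of another gene. Of all other genes, those of highest r with this mean over the 8 arrays were DCAF8, ERO1B and TMEM135, each at 0.98, and C1RL and PKD1L3, each at 0.97. In total 140 genes had r above 0.9. Their own log2 fold changes were 0.18, 0.22, 0.39, 0.16 and 0.02 in the order named, with adjusted p = 1 from limma for each.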

How the data were processed

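RNA of DU145 cells was profiled on 8 Affymetrix arrays, 4 per group. The authors deposited log2 intensities per probe set made with RMA, which includes background correction, quantile normalization between arrays and a summary over probes, and which takes out shifts common to an array. The RMA version and chip definition file are not given in the sources used here. That the logarithm has base 2 follows from RMA. The authors' supplementary p-values and fold changes were not used.

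The table holds 49395 probe sets, and the 49293 that remained without 102 controls were tested in R 4.3.3 with the lmFit and eBayes functions of limma 3.58.1 (two-sided, threshold 0.05 after Benjamini-Hochberg adjustment across the whole table). The comparison was tested on simulated data. The platform annotation gave 1 gene to 44988 probe sets, several to 1832 and none to 2473. Single probe sets were also compared by exact permutation over the 8 arrays, two-sided. For counts by gene, the probe set of highest overall mean stood for the gene. The 9 lists hold 144 genes, of which 130 were measured. Genes named were all members, up to 4 genes of smallest p of each other list, and the 5 genes most like the members between arrays. Cell type markers, EGR1 beside DUSP6, and SPRED1 beside technical measures were named after their values were seen. The members and lists were chosen with earlier results of these data known.

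Deviations from the group means of arrays with the same replicate number had correlations of 0.314, -0.344, -0.719 and -0.079, so the numbers were not taken to pair the samples. High-GC background probe sets had 20 to 25 G or C, low-GC ones 3 to 10. Alternatives were the unequal-variance test, a trended robust variance, array weights, the replicate block, median centring, a second quantile normalization, a filter on the dimmest 30% (log2 under 6.32), the mean of all probe sets of a gene, each array left out, and 2 covariates added after the data were seen. Motifs were searched on both strands with Python 3.11.15, tables were handled in pandas 2.3.3 and numpy 2.4.6, permutation tests used scipy 1.17.1, and figures were drawn with matplotlib 3.10.9. The number of arrays limits the precision.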

Additional observations from a re-analysis of the deposited data

Results flagged for a closer look

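Of 56 groups of 4 arrays, 1 group per condition for each of the 28 probe sets, 3 had an array far from the other 3 of its group, and chance alone gives about 1 in 20. DUSP6 probe set 11744435_a_at read 7.81 in Aldrin-exposed replicate 4, against 7.16 to 7.22 in the other exposed arrays. SPRY4 probe set 11762359_x_at read 9.72 in Aldrin-exposed replicate 2, against 9.50 to 9.54. SPRY4 probe set 11736669_s_at read 5.38 in the same array, against 4.83 to 4.92. Aldrin-exposed replicate 2 also had the highest mean of the hybridisation controls, 12.23, and the highest 3′ minus 5′ difference of ACTB, 0.45. Their part in these values was not tested. The gap to the nearest other array took 0.92 of the group's range in DUSP6, and 0.843 and 0.832 in the SPRY4 probe sets.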

How the results depend on the processing

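There were 18 alternative settings (8 of method, 2 covariates added after the data were seen, 8 arrays left out), and under none did a member pass the adjusted threshold. The mean of all probe sets of a gene gives values by gene only. At an unadjusted p under 0.05 the count of 2, where 3.07% of all probe sets passed, became 1 by the unequal-variance test (2.77% of all), 4 with array weights (5.08%), 1 with the GC background covariate (3.25%) and 1 with the GAPDH covariate (3.46%). It ran from 1 to 8 over the arrays left out, with 8 without Aldrin-exposed replicate 4 (DUSP6, ETV5 and SPRED1; 3.77% of all) and 4 without Non-exposed replicate 1 (2.30%) or 4 (5.70%). The count without overlap ran from 1 to 5, again highest without Aldrin-exposed replicate 4, and was 2 without Non-exposed replicate 1 or 4. With an array left out it could not fall below 1, because a probe set without overlap over all arrays stays so. Without Aldrin-exposed replicate 4, 2.66% of all probe sets had no overlap on the lower and 2.28% on the higher side. These shares were 2.11% and 1.3% without Non-exposed replicate 1, and 3.65% and 2.68% without Non-exposed replicate 4. The median log2 fold change of 0.082 became -0.015 with array weights, -0.038 with the GC covariate and -0.029 with the GAPDH covariate. SPRED1 at its probe set of highest mean turned to -0.02 with array weights and with each covariate, and ran from -0.00065 to 0.21 over the arrays left out. DUSP5 ran from -0.01 to 0.16 and turned without Non-exposed replicate 1, and PHLDA1 ran from -0.08 to 0.04 and turned without Aldrin-exposed replicate 4. The cause was not tested for any of these. The other 7 genes kept their sign in all 18 settings, but over the arrays left out SPRY4 ran from -0.64 to -0.15, ETV4 from -0.42 to -0.02, ETV5 from 0.04 to 0.28, DUSP4 from -0.11 to -0.02, SPRED2 from 0.12 to 0.24 and SPRY2 from 0.26 to 0.56. With the replicate block, 0 member probe sets passed and 3 had an unadjusted p under 0.05 (1.85% of all), but the numbers did not pair the arrays. Of 324 list values, 259 stayed close to the main value and 65 moved. The exact test cannot go below 0.0286, and differences under about 0.34 lie inside the usual interval of a member.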
